A study of Sus scrofa with 5 samples.

Results

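PVALB-positive nuclei with low NTRK2 and NTRK3 made up 89 of the 2189 nuclei of a pig dorsal root ganglion table (4.07%, exact binomial interval 3.28 to 4.98%). They were chosen by counts of unique molecular identifiers (UMIs): at least 2 UMIs of PVALB, PVALB at 3 or more per 10000 UMIs of the nucleus, and NTRK2 and NTRK3 each under 5 per 10000. They are called PVALB nuclei below, and were compared with 1758 other nuclei that held at least 1500 UMIs. Nuclei came from ganglia at thoracic and lumbar levels; the 5 Landrace pigs were male and untreated and form a single group, after isolation by protocols that differed in detergent and in how nuclei were separated or enriched for neurons by NeuN antibody. The cell barcodes carried 6 endings, none of which is tied to a pig or a protocol in the sources used here, so the table, 17277376 UMIs in all, was 1 pooled sample. No test over animals was possible, and every 95% interval covers counting error only: nuclei are not replicates.

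Parvalbumin, the product of PVALB, is an EF-hand protein that buffers calcium in fast-firing neurons and in fast skeletal muscle. In rodent ganglia it marks proprioceptors, the large myelinated afferents of muscle spindles and tendon organs, and some touch afferents. NTRK3 encodes the receptor for neurotrophin-3, on which proprioceptors depend, and NTRK2 the receptor for brain-derived neurotrophic factor, carried by touch afferents.

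The values that chose the nuclei are given as a description. PVALB ranged from 2 to 55 UMIs per nucleus with a median of 5, or from 3.02 to 50.6 per 10000 with a median of 10.1. In 21 of the 89 nuclei PVALB stood at exactly 2 UMIs, and in 25 it reached 10 or more. The nuclei just inside the PVALB limit lay at 3.02, 3.37 and 3.60 per 10000, and the nearest ones outside at 2.97, 2.73 and 2.67. For the higher of NTRK2 and NTRK3, the nearest members lay at 4.99, 4.87 and 4.82 per 10000 and the nearest PVALB-positive nuclei outside at 5.18, 5.24 and 5.25. Low did not mean absent: NTRK3 was counted in 53 PVALB nuclei, NTRK2 in 30, both in 25 and neither in 31. In 7 nuclei the total was so small that a single NTRK UMI would have passed the limit.

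Counted over all nuclei of a set, PVALB stood at 1222 counts per 1000000 UMIs (CPM) in the PVALB nuclei and at 25.7 CPM in the other nuclei. NTRK3 stood at 168 CPM against 211 CPM, although within barcode ending 1 the PVALB nuclei held more of it, 172 against 76.0 CPM. A background of PVALB was read from nuclei rich in SCN10A, the nociceptor sodium channel (at least 2 UMIs and 5 per 10000). Of these 615 nuclei, 6.34% held a PVALB UMI and 0.976% held at least 2, at a median depth of 7482 UMIs against 4834 UMIs in the PVALB nuclei. By barcode ending, 91 of the 615 carried ending 1, 176 ending 3, 182 ending 5 and 155 ending 6. Those endings held 52, 26, 1 and 2 PVALB nuclei. The background was not read by ending, so it may differ in the endings that hold most PVALB nuclei. In the Sscrofa11.1 annotation of RefSeq, PVALB spans 19742 bases (chr5:10953559-10973300), while NTRK2 spans 399889 bases (chr10:30030050-30429938) and NTRK3 406414 bases (chr1:191535262-191941675).

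The PVALB nuclei were spread unevenly over the barcode endings. Ending 1 held 52 of them (7.63% of its 682 nuclei), ending 3 held 26 (3.23% of 805) and ending 4 held 7 (9.33% of 75). Ending 2 held 1 of 13 nuclei, ending 5 held 1 of 331 and ending 6 held 2 of 283. The PVALB nuclei held 668701 UMIs in all, from 800 to 49484 per nucleus, and 3 of them were below 1500 UMIs. Only endings 1 and 3 had 10 or more PVALB nuclei, so ratios within an ending are given for these.

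Their RNA also differed in make-up. The median share of UMIs from the mitochondrial genome was 6.22% in the PVALB nuclei (0.179 to 72.9%) and 3.21% in the other nuclei. By ending, the medians were 5.79 against 4.18% in ending 1, 35.7 against 21.2% in ending 3 and 2.82 against 1.72% in ending 4, while the lone PVALB nucleus of ending 2 lay below, at 3.03 against 13.9%. Genes of 100 kb or longer, whose unspliced transcripts are common in nuclear RNA, gave a median of 27.7% of the UMIs of the PVALB nuclei and 54.6% of those of the other nuclei. This share was lower in endings 1 (27.0 against 38.5%), 3 (25.2 against 59.7%) and 4 (35.5 against 53.6%). The genes at least 2-fold higher in the PVALB nuclei had a median length of 10.8 kb, those at least 2-fold lower 92.2 kb and all genes tested 39 kb. What part this difference had in the selection and in the ratios below was not tested. The main lists below are therefore given with their median log2 ratio over all endings, within endings 1 and 3, and, where so stated, between nuclei with under 35% long-gene UMIs on both sides (the long-gene limit, added after seeing the data).

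**Figure D1:**
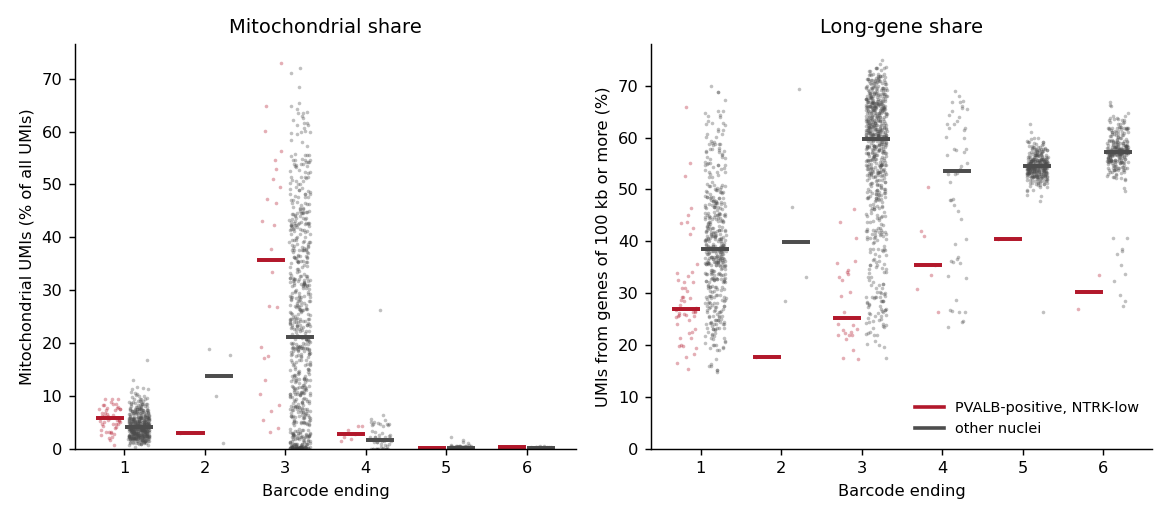
Share of UMIs from the mitochondrial genome (left, percent) and from genes of 100 kb or more (right, percent) by barcode ending; each point is a nucleus, bars are medians, PVALB nuclei in red and other nuclei in grey. In ending 3 the medians were 35.7 against 21.2% (left) and 25.2 against 59.7% (right).

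Of the 13251 genes that reached 50 UMIs in the 2 sets together, 1766 were at least 2-fold higher in the PVALB nuclei with an interval that excluded 1 (13.3%) and 2270 were at least 2-fold lower (17.1%); PVALB, NTRK2 and NTRK3 were left out. The median log2 ratio of all these genes was -0.17. The shares of 13.3% and 17.1% are those to set beside each count of list genes against other nuclei below. At least 2-fold higher in both endings 1 and 3 were 338 of 10954 genes (3.09%), and 622 were at least 2-fold lower in both (5.68%). With the other nuclei weighted to the endings of the PVALB nuclei, a comparison added after seeing the data, the counts were 510 higher and 1464 lower. Here the 2-fold limit was applied to the weighted ratio, and the interval was that of the unweighted counts.

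The genes that mark large-diameter neurons were higher in the PVALB nuclei, all 7 of 7 by at least 2-fold against 13.3% of all genes. These markers were proposed from these data and are no independent evidence. PCP4, a small regulator of calmodulin, stood at 2881 CPM in PVALB nuclei against 319 CPM in other nuclei of ending 1, 1724 against 106 CPM in ending 3 and 1391 against 346 CPM in ending 4. In the endings with 1 or 2 PVALB nuclei it stood at 5244 CPM in ending 2, 0 in ending 5 and 795 CPM in ending 6. The PVALB nuclei were thus higher in every ending but ending 5, where the lone nucleus held none. Over all endings PCP4 was 16.1-fold higher (interval 15.1 to 17.2) and was counted in 86 of the 89 nuclei. With every nucleus thinned to 1500 UMIs, PCP4 would be counted in 84.5% of 86 PVALB nuclei, 15.3% of the other nuclei and 5.44% of SCN10A-high nuclei; unthinned, the shares were 96.6, 34.2 and 22.6%.

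NEFL and NEFH, the light and heavy neurofilament chains that set axon calibre, were counted in all 89 nuclei. NEFL ranged from 6.21 to 598 per 10000 UMIs with a median of 178, and summed to 19967 CPM against 3015 CPM in other nuclei (6.62-fold, 6.50 to 6.75). NEFH ranged from 4.04 to 393 per 10000 with a median of 59.4, and summed to 7284 against 965 CPM (7.55-fold, 7.31 to 7.80). NEFH was higher in the PVALB nuclei of all 6 endings: 8028 against 1875 CPM in ending 1, 4619 against 661 in ending 3 and 4717 against 915 in ending 4, with 9576, 5942 and 27355 CPM in the few nuclei of endings 2, 5 and 6.

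TUBA4A, an alpha-tubulin, stood at 496 against 48.8 CPM (10.2-fold, 8.93 to 11.6) and was counted in 66 nuclei. CPLX1, a complexin that clamps synaptic vesicle fusion, stood at 443 against 97.9 CPM (4.52-fold, 3.98 to 5.12) and was counted in 70. EPN3, an endocytic adaptor of the epsin family, stood at 178 against 26.4 CPM (6.74-fold, 5.45 to 8.27) and was counted in 57. KCNA1, the fast potassium channel subunit Kv1.1, was less even. It stood at 402 against 79.9 CPM in ending 1, 56.2 against 21.0 in ending 3 and 111 against 90.0 in ending 4. KCNA1 was counted in 40 nuclei, and a single nucleus held 27.4% of its UMIs.

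**Figure D2:**
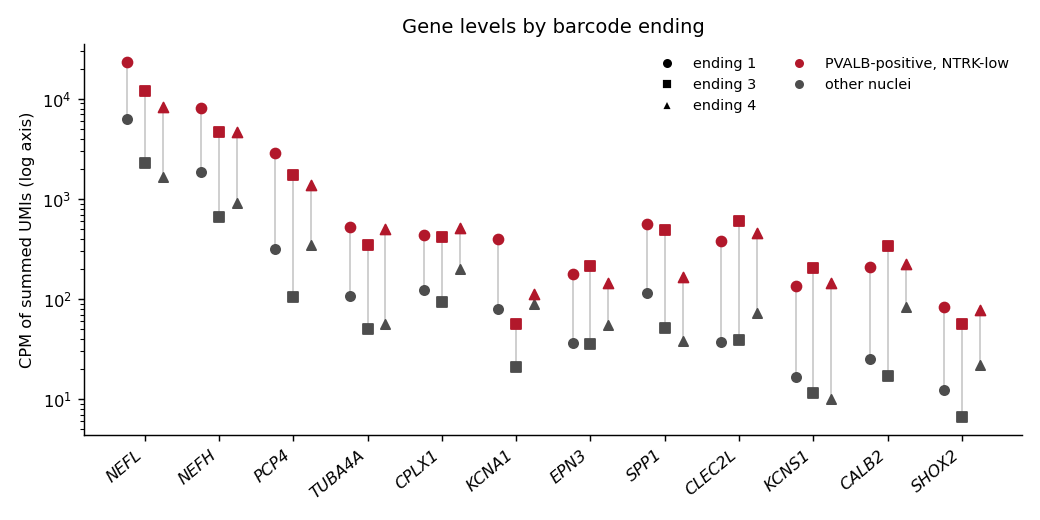
CPM of summed UMIs (log axis) of 12 genes in PVALB nuclei (red) and other nuclei (grey) of barcode endings 1 (circles), 3 (squares) and 4 (triangles). Every red point lies above its grey partner; the gap is smallest for KCNA1 in ending 4, at 111 against 90.0 CPM.

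Of 15 transcription factors of large-fibre neurons tested, 6 were at least 2-fold higher and 2 lower, against 13.3% and 17.1% of all genes, and the other 7 were not called. Their median log2 ratio was 0.88 over all endings, 0.77 in ending 1, 0.72 in ending 3 and 0.70 under the long-gene limit. ETV1, an ETS factor that mouse proprioceptors need, stood at 600 against 153 CPM (3.91-fold, 3.51 to 4.35) and was counted in 75 nuclei. RUNX3, which in mouse directs NTRK3-positive proprioceptors, had only 16 UMIs in 13 nuclei, 23.9 against 4.25 CPM (5.63-fold, 3.05 to 9.80). SHOX2, a homeobox factor of mouse touch neurons, stood at 79.3 against 8.31 CPM (9.53-fold, 6.80 to 13.2). ONECUT1 stood at 91.2 against 18.5 CPM (4.94-fold, 3.69 to 6.52). DRGX, a homeobox factor needed for nociceptor circuits in mouse, was lower, at 25.4 against 138 CPM (5.41-fold, 3.37 to 9.31).

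Of the proprioceptor markers that did not enter the selection, ETV1, RUNX3 and HEG1 were tested and all 3 were higher, HEG1 with only 6 UMIs in 5 nuclei (2.91-fold, 1.02 to 6.80). Of the touch markers, KCNS1, a silent subunit that modulates Kv2 channels, was 19.6-fold higher (14.9 to 25.9), at 145 against 7.39 CPM. SLC17A7, the vesicular glutamate transporter VGLUT1, stood at 80.8 against 12.8 CPM (6.30-fold, 4.58 to 8.54). MAF stood at 52.3 against 28.4 CPM and ESRRG at 77.8 against 90.0 CPM, both within 2-fold, and CALB1 had no UMI in the PVALB nuclei.

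The cytoskeleton list was mixed beyond its neurofilaments. Of 17 tested genes, 9 were at least 2-fold higher and 4 lower, against 13.3% and 17.1% of all genes. The median log2 ratio was 1.31 over all endings, but 0.43 in ending 1, 1.19 in ending 3 and 0.10 under the long-gene limit. TUBB3, a neuronal beta-tubulin, stood at 3302 against 879 CPM and STMN2, a tubulin-binding stathmin, at 4630 against 1870 CPM. Their log2 ratios were 0.73 and 0.20 within ending 1 and 1.36 and 0.80 within ending 3, so that over all endings they were past 2-fold but within ending 1 neither was. The ankyrins ANK1 and ANK3, which anchor membrane channels to the cytoskeleton, were lower, at 77.8 against 482 CPM and 1128 against 2743 CPM.

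Calcium-binding genes also split. Of 18 tested besides PVALB, 7 were higher and 3 lower, against 13.3% and 17.1% of all genes. The median log2 ratio was 0.27 over all endings, 0.06 in ending 1, 0.93 in ending 3 and -0.28 under the long-gene limit. CALB2, the calcium buffer calretinin, stood at 242 against 34.8 CPM (6.96-fold, 5.81 to 8.31) and was counted in 48 nuclei. Within endings its log2 ratio was 3.07 and 4.32, larger than over all endings. VSNL1, a neuronal calcium sensor, stood at 814 against 138 CPM (5.89-fold, 5.36 to 6.47).

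Most voltage-gated channel genes that differed were lower. None of 14 calcium channel genes was higher and 12 were lower, with a median log2 ratio of -1.96 over all endings, -1.33 in ending 1 and -2.61 in ending 3. CACNA1C, the L-type pore subunit, stood at 23.9 against 415 CPM (17.3-fold lower, 10.7 to 30.4), and CACNA2D1, the auxiliary subunit bound by gabapentin, at 202 against 766 CPM. Against 13.3% and 17.1% of all genes, 5 of 19 potassium and HCN channel genes were higher (KCNA1, KCNC1, KCNS1, HCN2 and KCNK1) and 5 were lower. Their median log2 ratio was -0.46 over all endings and -0.19 in ending 1, but 1.01 in ending 3, and -0.21 under the long-gene limit. KCNC1, the fast Kv3.1 subunit, stood at 148 against 25.9 CPM (5.71-fold, 4.54 to 7.12). KCNQ5, a subunit of the M-current, stood at 85.2 against 614 CPM.

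Of 13 sodium channel and pump genes, 3 were higher and 7 lower, against 13.3% and 17.1% of all genes. The median log2 ratio of the 13 was -1.26 over all endings, -0.86 in ending 1, -0.49 in ending 3 and -0.84 under the long-gene limit. SCN1A, the Nav1.1 subunit of myelinated neurons, stood at 278 against 104 CPM (2.66-fold, 2.28 to 3.10), and ATP1B1, a subunit of the sodium pump, at 1223 against 397 CPM. The nociceptor channels were lower. SCN9A stood at 175 against 736 CPM (4.20-fold, 3.50 to 5.09) and SCN10A at 56.8 against 528 CPM (9.29-fold, 6.76 to 13.1).

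Among 21 synaptic release genes, 6 were higher and 7 lower, against 13.3% and 17.1% of all genes. The median log2 ratio was -0.23 over all endings, -0.47 in ending 1, 0.05 in ending 3 and -0.67 under the long-gene limit. SNAP25, a SNARE protein of vesicle fusion, stood at 1811 against 543 CPM, with log2 ratios of 1.56 in ending 1 and 1.86 in ending 3. SYT2, the calcium sensor of fast release, stood at 156 against 31.0 CPM (5.01-fold, 4.02 to 6.20). SYT7, a slower sensor, stood at 47.9 against 330 CPM. Of 25 ligand-gated channel genes, 4 were higher, close to the share over all genes, and 10 lower. Their median log2 ratio was -0.35 over all endings, -0.39 in ending 1, -0.12 in ending 3 and -0.51 under the long-gene limit. P2RX5, an ATP-gated channel, stood at 103 against 21.4 CPM and ASIC1, an acid-sensing channel, at 79.3 against 38.7 CPM. P2RX3, the nociceptor ATP channel, had no UMI in the PVALB nuclei. None of 8 mechanical transduction genes was higher and 4 were lower. PIEZO2, the touch and proprioception channel, stood at 199 against 685 CPM (3.44-fold lower, 2.90 to 4.12), with log2 ratios of -0.59 in ending 1 and -1.62 in ending 3. The median of that list changed sign between all endings (-1.72) and ending 3 (0.66).

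Genes of C-fibre neurons were lower than in the other nuclei. Of 16 nociceptor markers 11 were at least 2-fold lower and none higher, against 17.1% of all genes lower. TRPV1, the heat and capsaicin channel, had 1 UMI in all 89 nuclei, 1.50 against 27.2 CPM (18.2-fold, with a counting interval of 3.25 to 720). OPRM1, the mu opioid receptor, stood at 71.8 against 266 CPM (3.70-fold, 2.79 to 5.03). TAC1, the substance P precursor, stood at 1032 against 1522 CPM and was counted in 72 of 89 nuclei, so that it was within 2-fold over all endings; its log2 ratio was -1.56 in ending 1 and -1.21 in ending 3. TRPM8, the cold channel, stood at 8.97 against 131 CPM (14.6-fold, 6.70 to 39.8). Of the 6 C-fibre touch markers tested, 5 were lower, among them SLC17A8 (VGLUT3) at 10.5 against 58.1 CPM and TAFA4 at 7.48 against 63.4 CPM.

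No marker of the other C-fibre groups was called higher than in the other nuclei. Comparisons with closer sets, given below, differed. Of 7 markers of SST- and OSMR-expressing itch neurons 3 were lower (OSMR, IL31RA and CYSLTR2), and of 4 cold neuron markers 3 were lower (TRPM8, CDH8 and RXFP1). Of 13 neuropeptide and granule genes, CHGA and CHGB, the chromogranins of secretory granules, were higher, and ADCYAP1, GAL and PCSK2 were lower. Over all genes 13.3% were higher and 17.1% lower, so these counts lie near those shares. The median log2 ratio of the 13 was -0.53 over all endings, -1.56 in ending 1 and -0.99 in ending 3.

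Genes of energy metabolism and translation were higher over all endings, and less so within them. Of 18 nuclear genes of oxidative phosphorylation 17 were at least 2-fold higher, with a median log2 ratio of 2.10, against 0.73 within ending 1 and 1.56 within ending 3. NDUFA4 stood at 1003 against 163 CPM and COX4I1, a cytochrome oxidase subunit, at 655 against 155 CPM. All 14 cytosolic ribosomal protein genes were higher, with a median of 1.47, but 0.06 within ending 1 and 0.97 within ending 3; reads of these genes can be shared with near-identical pseudogene copies. Of 12 genes of glycolysis 8 were higher, with a median of 1.50, 0.47 in ending 1, 1.08 in ending 3 and 0.15 under the long-gene limit. Of 9 injury and activity genes 3 were higher (FOS, HSPA8 and GADD45A), with a median of 0.70 over all endings, -0.03 in ending 1 and 1.07 in ending 3. Under the long-gene limit 3 of them were tested, with a median of -0.83. The 13 genes of the mitochondrial genome had a median of 0.61, and only ND6 passed 2-fold.

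Markers of other cells were read for the same nuclei. Of 9 satellite glia markers 4 were higher (FABP7, APOE, GLUL and GJA1), with a median log2 ratio of 0.94, but -0.08 in ending 1 and 0.03 in ending 3. Their summed level was 2720 against 1449 CPM over all endings, 2664 against 2900 CPM in ending 1 and 806 against 1312 CPM in ending 3. The part of glial RNA in the ratios was not tested. The Schwann cell list was at 0.63 over all endings, -0.15 and 0.17 within the endings, and the fibroblast list at 0.75, -0.40 and -0.15. Of 5 endothelial genes 1 was higher (KDR), of 5 macrophage and lymphocyte genes 1 (CD74) and of 5 mural cell genes none, against 13.3% of all genes. HBB was the only globin gene tested, also higher. The endothelial median was 0.46 over all endings, 0.11 in ending 1 and 1.27 in ending 3. For macrophages and lymphocytes these values were 0.49, -0.30 and 0.73, and for HBB 1.45, 0.10 and 0.31. Because fast muscle carries PVALB, 15 muscle genes were listed, 9 of which have a row: CKM, MYL1, MYLPF, NEB, TNNI2 and ATP2A1 had no UMI in the PVALB nuclei, and the list summed to 40.4 against 60.2 CPM. Of its 4 genes tested, ACTA1 was higher and TNNT3 lower.

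**Figure D3:**
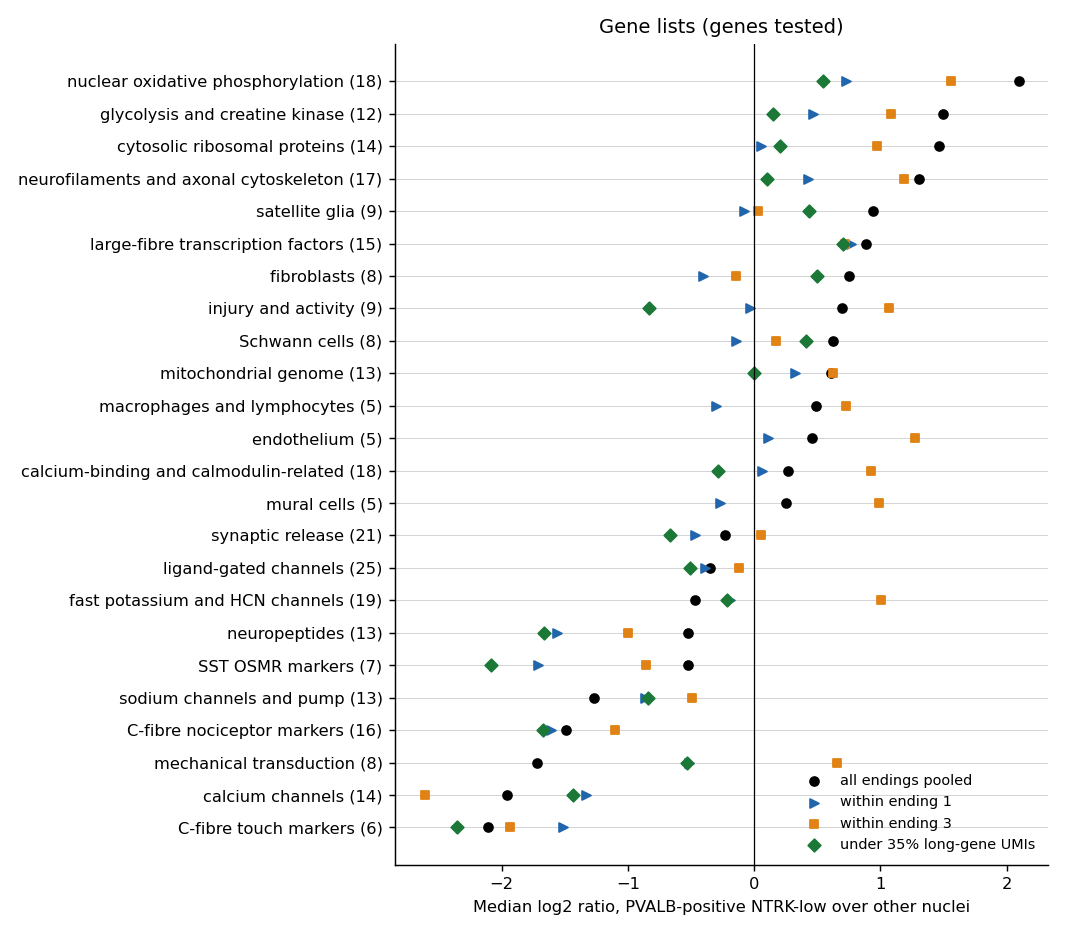
Median log2 ratio of PVALB nuclei over other nuclei for gene lists with at least 5 genes tested (number in brackets), over all endings (black), within ending 1 (blue), within ending 3 (orange) and with both sides under 35% long-gene UMIs (green). C-fibre and calcium channel lists lie left of 0 in each, while the ribosomal list moves from 1.47 over all endings to 0.06 in ending 1.

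The genes with the largest ratios were drawn by rule, among those with the same direction in each of endings 1 and 3 that gave a ratio, after adding 0.5 counts, and with no nucleus holding over 25% of the UMIs of the set in which the gene was higher. Among the higher ones, the following ran from 9.44 to 19.6-fold: KCNS1, PCP4, HOXA7, IFITM10, TNNT1, CLEC2L, CA2, SPP1, SCT, TUBA4A, CDKN1A, SHOX2, B3GALT2 and TPPP. CLEC2L, a C-type lectin-like membrane protein, stood at 444 against 39.7 CPM (11.2-fold, 9.71 to 12.8) and was counted in 72 nuclei. SPP1, which encodes osteopontin and marks large-diameter sensory neurons in rodents, stood at 488 against 46.4 CPM (10.5-fold, 9.20 to 12.0) and was counted in 75. CA2, the carbonic anhydrase of large-diameter sensory neurons in rodents, stood at 49.4 against 4.50 CPM (11.0-fold, 7.05 to 16.8). TNNT1, the slow skeletal troponin T, had 24 UMIs in 22 nuclei, at 35.9 against 2.89 CPM. HOXA7 had 39 UMIs in 25 nuclei, but none in ending 3, where the other nuclei stood at 2.66 CPM, so that its direction there rests on the added counts. TNNT1 and B3GALT2 gave no ratio in ending 3.

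The 10 lower ones rested on 1 to 4 UMIs each in the PVALB nuclei. A count of 0 was set to 3 counts, while a count of 1 was kept. At the same level in other nuclei, a gene with no UMI therefore ranked behind a gene with 1. Of the genes tested, 657 had no UMI in the PVALB nuclei, so the 10 need not be the most depleted genes. TMC3, a transmembrane channel-like protein, stood at 5.98 against 135 CPM (22.5-fold lower, 8.78 to 82.7), and HS3ST4, a heparan sulfate sulfotransferase, at 5.98 against 120 CPM (20.0-fold, 7.81 to 73.6). CDH9, FAM135B, HS3ST3A1, NPNT, ABCD4, STK33, GLIS1 and RPH3AL had 1 UMI each, with ratios of 19.8 to 28.9-fold whose intervals began at 3.53 to 5.17-fold and ended at 782-fold or more.

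A further set was chosen after seeing the values: the genes with the largest ratio in whichever of endings 1 and 3 gave the smaller one. It brought in RUNX3, LHFPL1, PTPN5, CALB2, SNCB, CRHR2, CHRNB1, LANCL3 and ADRA1A besides those named. SNCB, the presynaptic protein beta-synuclein, stood at 130 against 14.8 CPM (8.77-fold, 6.78 to 11.2), with log2 ratios of 3.02 and 3.24. PTPN5, the neuronal phosphatase STEP, stood at 73.3 against 25.9 CPM over all endings, with larger log2 ratios of 3.32 and 3.10 within the endings. The lower side of this set included TRPM8, KCND3, CACNA1C, KCNQ5, GRM7 and OPRM1. GRM7, a presynaptic glutamate receptor, stood at 132 against 1008 CPM, and KCND3, the A-type channel Kv4.3, at 37.4 against 551 CPM.

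Fewer genes were called between nuclei of low long-gene share. In a comparison added after seeing the data, both sides were limited to nuclei with under 35% of UMIs from long genes, so that 69 PVALB nuclei were set against 238 other nuclei. Of 7615 genes tested, 313 were at least 2-fold higher (4.11%) and 690 lower (9.06%). In both endings 1 and 3, 64 of 6186 were higher (1.03%) and 270 lower (4.36%). Of the 338 genes higher in both endings without this limit, 193 were still tested in both and 49 were among the 64. Of the 622 lower genes, 348 were still tested and 176 were among the 270.

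PCP4 and CALB2 stood at log2 2.93 and 2.84. In ending 1, PCP4 stood at 2.60 under the limit and 3.17 without it, and in ending 3 at 2.62 and 4.02. For CALB2 these values were 3.10 and 3.07 in ending 1, and 3.01 and 4.32 in ending 3. CLEC2L stood at 2.73, KCNS1 at 2.65, SHOX2 at 2.43, SPP1 at 2.19 and VSNL1 at 2.16. NEFH stood at 1.50 and NEFL at 1.30, with 0.76 and 0.34 in ending 3. TUBA4A stood at 1.63 over all endings but 0.11 in ending 3, and KCNA1 at 1.97 but -0.07. The 18 oxidative phosphorylation genes had a median of 0.54 and the 14 ribosomal protein genes 0.20. On the lower side, the 12 nociceptor markers tested had a median of -1.67 and the 12 calcium channel genes -1.43. OPRM1 stood at -2.64, TRPM8 at -2.50 and TAC1 at -1.69.

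**Figure D4:**
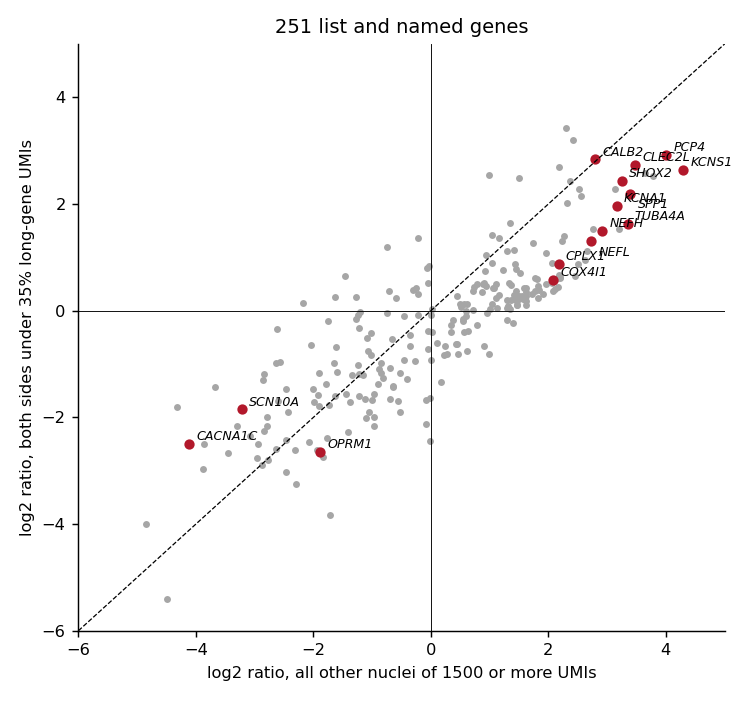
Log2 ratio of PVALB nuclei over other nuclei for 251 list and named genes, against all other nuclei of 1500 or more UMIs (horizontal) and with both sides under 35% long-gene UMIs (vertical); the dashed line marks equal ratios and the red points are labelled genes. CALB2 lies at 2.80 and 2.84, NEFL at 2.73 and 1.30, and COX4I1 at 2.08 and 0.58.

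The PVALB nuclei varied among themselves. The 7 large-fibre markers without PVALB summed to 14.5 to 1007 per 10000 UMIs, with a median of 290, against a median of 22.4 in other nuclei. The medians were 333 in ending 1, 207 in ending 3 and 151 in ending 4. The 36 C-fibre genes summed to 2.45 to 202 per 10000, with a median of 22.1 against 47.0 in other nuclei. In 5 PVALB nuclei the C-fibre sum exceeded the large-fibre sum, 4 of them in ending 1 and 1 in ending 3. It did so in 1265 of the 1758 other nuclei. The 7 markers were proposed from these data, so these gaps to the other nuclei are no independent evidence. Those 5 nuclei had large-fibre sums of 14.5 to 85.2 and C-fibre sums of 73.3 to 202 per 10000. Whether a nucleus of this kind is a mixture of 2 nuclei or carries free RNA was not tested; no nucleus was removed as a doublet.

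**Figure D5:**
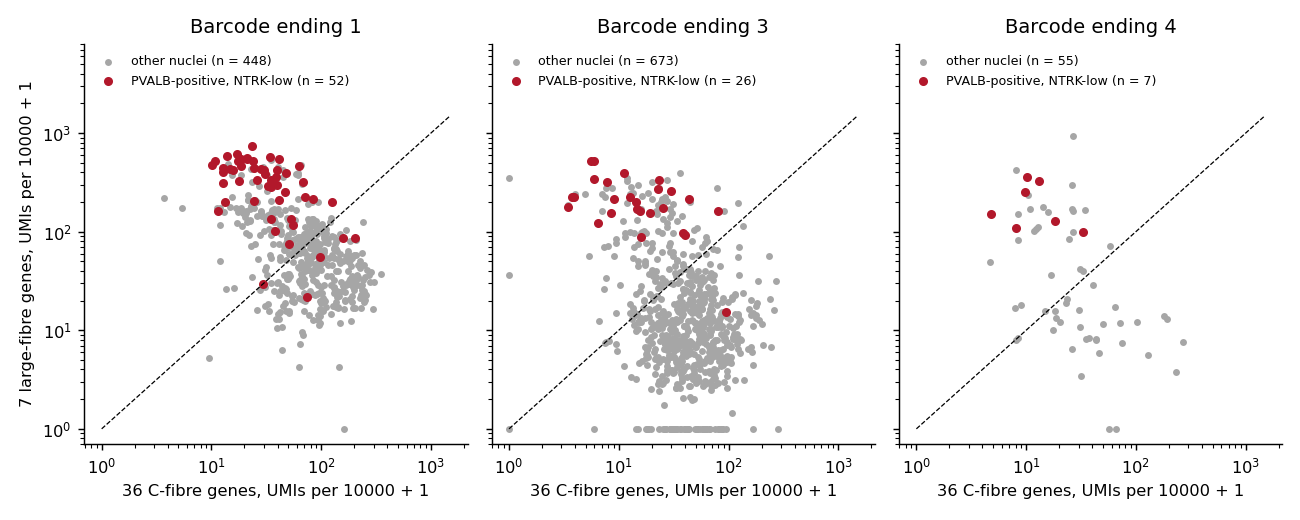
Summed UMIs per 10000 (plus 1, log axes) of 7 large-fibre markers against 36 C-fibre genes in each nucleus of barcode endings 1, 3 and 4, PVALB nuclei in red, other nuclei in grey; the dashed line marks equal sums. In endings 1 and 3, 4 and 1 PVALB nuclei lie below the line, and in ending 4 none does. The 7 markers were proposed from these data.

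A first set to compare was the 23 PVALB-positive nuclei in which NTRK2 or NTRK3 reached 5 per 10000. In 6 of the 23, no gene passed this limit on more than 1 UMI. In 5, the higher of NTRK2 and NTRK3 lay at 5 to 6 per 10000. None of the 7 markers differed by 2-fold between the 2 sets. PCP4 stood at 2457 against 1890 CPM (1.30-fold, 1.16 to 1.47), NEFL at 19967 against 13640 CPM (1.46-fold, 1.40 to 1.53) and KCNA1 at 305 against 156 CPM (1.96-fold, 1.32 to 3.02). CPLX1 stood at 443 against 484 CPM (1.09-fold lower, 0.850 to 1.39). CALB2 stood at 242 against 311 CPM, ETV1 at 600 against 556 CPM and VSNL1 at 814 against 750 CPM, all within 2-fold. A single nucleus held 46.2% of the PCP4 UMIs of these 23 and 29.3% of their NEFL UMIs. Of 6 nociceptor markers tested, 3 were at least 2-fold higher in the PVALB nuclei (RUNX1, RET and TAC1), against 5.45% of all genes, and none was lower. Their median log2 ratio was 1.125 over all endings but -0.07 in ending 1. NPPB, 1 of 2 SST and OSMR markers tested, was also higher. A single PVALB nucleus held 34.4% of the NPPB UMIs of its set, and a single one 29.6% of those of RUNX1. Within ending 1 the log2 ratio was 0.15 for NPPB and 1.29 for RUNX1.

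Of 3690 genes tested against them, 201 were at least 2-fold higher (5.45%) and 387 lower (10.5%). These counts moved to 70 and 167 without the nuclei above 50000 UMIs, which took out 1 of the 23, to 68 and 203 without ending 1 and to 50 and 120 without ending 4. Fewer genes were then tested, 3390, 1203 and 2805 in that order. MPC2, a mitochondrial pyruvate carrier subunit, was 7.13-fold higher (1.88 to 60.4), followed by CNTN4, UCHL3, CAND1, BTBD10 and ATMIN, each resting on 2 to 4 UMIs in the 23 nuclei. On the lower side, GPR176, an orphan G protein-coupled receptor, was 3.19-fold lower (1.77 to 5.70), and USP31, RNF216, CYTH3 and MCF2L2 were 2.32 to 2.89-fold lower. The genes called lower had a median length of 177 kb and those called higher 13.1 kb, and the median long-gene share was 38.6% in the 23 nuclei against 27.7%.

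The second set, added after seeing the data, required a minimum of NTRK UMIs and of total UMIs, unlike the first. It was 246 nuclei with at least 1500 UMIs and no PVALB UMI. These held NTRK2 or NTRK3 at 2 or more UMIs and at 5 or more per 10000. Against them, 1205 of 7699 genes were at least 2-fold higher (15.7%) and 1736 lower (22.5%), and in both endings 1 and 3 this held for 99 of 6818 (1.45%) and 308 (4.52%). PCP4 stood at 2457 against 96.8 CPM (25.4-fold, 21.8 to 29.7), CALB2 at 242 against 13.2 CPM (18.3-fold, 12.0 to 29.1) and SPP1 at 488 against 34.4 CPM (14.2-fold, 10.8 to 18.8). Their log2 ratios within endings 1 and 3 were 4.01 and 4.15, 3.91 and 4.13, and 3.38 and 3.52. ETV1 stood at 600 against 79.3 CPM (7.56-fold, 6.25 to 9.18). All 7 markers were at least 2-fold higher, with a median log2 ratio of 2.62 over all endings, 1.32 in ending 1 and 2.34 in ending 3. The smallest values within an ending were 0.26 for KCNA1 in ending 3 and 0.36 for CPLX1 in ending 1.

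On the lower side of that comparison, HS3ST4 stood at 5.98 against 460 CPM (76.8-fold, 29.9 to 283) and ZMAT4, a zinc finger protein, at 25.4 against 760 CPM (29.9-fold, 18.6 to 51.4). PIEZO2 stood at 199 against 1079 CPM (5.42-fold, 4.55 to 6.51). TAC1 was higher in the PVALB nuclei, at 1032 against 274 CPM, but its log2 ratio was 0.40 in ending 1. Of 12 nociceptor markers tested, 1 was higher and 2 were lower, with a median log2 ratio of 0.03. Of 4 SST and OSMR markers, 3 were higher, against 15.7% of all genes. Their median was 1.19 over all endings, 0.79 in ending 1 and 0.29 in ending 3. Of 3 cold neuron markers 2 were lower, and of 5 C-fibre touch markers 3 were lower, against 22.5% of all genes. Of the 246 nuclei, 135 carried ending 3 and 39 ending 1, against 26 and 52 of the PVALB nuclei.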

How the data were processed

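The authors deposited 1 table of raw UMI counts, 30477 genes by 2189 nuclei, with no normalization; libraries used 10x Genomics chemistry for 3' ends, per the labels' protocols. Per the submitters' processing notes, which give no roles, Cell Ranger 6.0.1, Seurat and the build Sscrofa11.1 were used. Gene names were found for 773 of the 14012 rows that carry an Ensembl identifier. Nuclei held 501 to 338372 UMIs; no barcode occurred under 2 endings, and no doublet caller was run.

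UMIs were summed per set and given as CPM; a count of 0 was set to 3 counts per set in ratios. Ratios carry the exact conditional binomial interval and shares the Clopper-Pearson interval, at 95%. A gene was called at 2-fold or more with an interval excluding 1. For per-nucleus means, means within endings and ending matching, only the ratio was replaced, and the interval stayed that of the summed counts. Within an ending, a ratio was formed only from 10 or more nuclei in each set and 10 or more UMIs, after adding 0.5 counts. Named genes were the 8 markers, the 15 largest higher and 10 largest lower ratios (6 and 6 against PVALB-positive NTRK-high nuclei) with one direction in all endings giving a value, and 2 to 4 of each list. Gene lengths came from RefSeq on Sscrofa11.1 and were known for 81.1% of genes tested. Members and lists were chosen with earlier results of these data known. With 1 pooled sample no count model was fitted. Alternatives were other sums, totals, filters and thresholds and each ending left out; ending matching, the long-gene limit and the comparison with NTRK-high nuclei lacking PVALB were added after seeing the data. Ribosomal protein and tubulin genes may share reads with near-identical copies. The ratio code was tested on simulated data. Python 3.11.15, numpy 2.4.6, pandas 2.3.3 and scipy 1.17.1 were used. A few genes that the rule or lists named are not reported here.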

Additional observations from a re-analysis of the deposited data

Results flagged for a closer look

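The median mitochondrial share of the PVALB nuclei of ending 3, 35.7%, lay far above that of the 5 other endings, which ran from 0.193 to 5.79%. Endings 2, 5 and 6 hold 1, 1 and 2 of these nuclei. The other nuclei of ending 3 were also highest, with a median of 21.2% against 0.0590 to 13.9% in the 5 other endings. A high share is thus not particular to the PVALB nuclei of that ending. The rule behind this flag (Dixon's ratio at its 95% critical value) is set to flag about 1 group in 20 by chance, and medians of 1 or 2 nuclei are not like the others in precision.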

How the results depend on the processing

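The 4 counts of genes at least 2-fold different stayed within 1.5 times in 52 of 84 recomputations. Against other nuclei (1766 higher, 2270 lower) they moved to 782 higher by the mean of log2 ratios within endings, 884 and 966 with nuclei thinned to 1500 UMIs, 999 and 1243 with NTRK2 and NTRK3 at 0 UMIs, 1357 lower without nuclei over 5% mitochondrial, and, in alternatives chosen after seeing the data, 510 with ending-matched other nuclei (1464 lower) and 313 and 690 under 35% long-gene UMIs.

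Against the PVALB-positive NTRK-high nuclei (201 and 387) they moved to 121 and 212 by the mean of per-nucleus CPM, 70 and 167 without nuclei above 50000 UMIs, 68 and 203 without ending 1, 50 and 120 without ending 4, 47 and 93 by the mean within endings, 21 and 18 when thinned, 32 higher with NTRK at 0 UMIs, 28 higher with NTRK under 2 per 10000, 175 lower without nuclei over 5% mitochondrial, 1014 lower with no filter on low counts, 41 and 46 at 200 UMIs or more, 56 and 72 when ending-matched and 41 and 58 under 35% long-gene UMIs. With NTRK at 0 or under 2 per 10000, the comparison set grew to 81 or 62 nuclei. Fewer genes were tested after thinning (7813 and 361), at 200 UMIs (592), without endings 1 (1203) and 4 (2805), without nuclei above 50000 UMIs (3390) or over 5% mitochondrial (12494 and 1525) and under the long-gene limit (7615 and 2221), and fewer PVALB nuclei entered at NTRK 0 (31) and under 5% mitochondrial (31); otherwise the cause was not tested.

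The 7 markers kept their direction against other nuclei in all 21 alternatives. Against the PVALB-positive NTRK-high nuclei, 6 of the 7 markers changed sign in at least 1 alternative. Where the interval had excluded 1, signs changed for KCNA1 (-0.056 by per-nucleus means, -0.62 at NTRK 0, -0.36 at NTRK under 2), PCP4 (-0.30 within endings, -0.19 ending-matched, -0.56 under 35% long-gene UMIs), NEFL (-0.041 at NTRK 0 and -0.038 under 35%), MPC2 (-0.24) and UCHL3 (-0.62), both at NTRK 0. Of markers whose interval held 1, TUBA4A ran from -0.26 to 0.82, CPLX1 from -0.86 to 0.36 and EPN3 from -0.38 to 0.56. The mechanical transduction median against other nuclei changed sign within endings (0.069) and at NTRK 0 (0.14). In all, 13 of 28 list medians changed sign in at least 1 alternative. The 12 besides mechanical transduction were below 1 in size over all endings. Among them were fast potassium and HCN channels (-0.62 to 0.97), calcium-binding (-0.28 to 1.02), ligand-gated channels (-0.86 to 0.88), injury and activity (-0.83 to 1.77), fibroblasts (-0.30 to 1.44) and skeletal muscle (-0.88 to 1.85). The upper ends 0.97, 0.88, 1.77 and 1.85 came at NTRK 0, where 31 PVALB nuclei were left. A gene with no UMI in these nuclei was still set to 3 counts, over a smaller total of UMIs. The part of this in the sign changes at NTRK 0 was not tested. The median of all genes ran from -0.22 without ending 4 to 0.85 with no filter on low counts, where 24313 genes were tested. The upper end for calcium-binding genes, 1.02, came at the same setting. There a rare gene with no UMI in the PVALB nuclei, still set to 3 counts, can show a positive log2 ratio. The part of such genes in these 2 upper ends was not tested. No paired analysis was possible because the nuclei are not tied to pigs. With 1 pooled sample, the spread between animals is not covered by any interval; 21 of the 89 nuclei rest on 2 PVALB UMIs.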
